A study of Homo sapiens with 24 samples.

Results

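The matrix metalloproteinases (MMP), the ADAMTS proteases and their inhibitors, the TIMPs, were followed across 8 groups of human U2OS osteosarcoma cells measured by RNA-seq. The members were all genes named MMP, ADAMTS or TIMP with a number, which gave 47 of the 57820 genes counted: 24 MMP, 19 ADAMTS and 4 TIMP genes. Each group held 3 biological replicates, 24 libraries in all. In AID-DIvA cells, U2OS cells that carry the vector for the restriction enzyme AsiSI, the groups were untreated WT, untreated ID3-KO, and WT and ID3-KO cells treated with mocetinostat, an inhibitor of class I histone deacetylases, for 24 h and then kept for 24 h in medium without the drug ("recovered"). In cells labelled U2OS the groups were untreated WT, untreated ID3-KO, and WT and ID3-KO cells treated with mocetinostat with no recovery named ("treated"), a stage read from the deposited description and the methods. No induction of DNA breaks is named for these libraries, no dose is given for them, and the supplement calls the controls DMSO. The sources used here do not say whether an ID3-KO line is 1 clone. The cell line label and the stage coincide, and the library names of the U2OS groups also carry DivA, so a difference between lines and one between stages cannot be told apart. Titles and treatment field contradict each other in the 12 AID-DIvA libraries, where the titles were followed, and following the treatment field instead would turn the sign of each AID-DIvA treatment comparison.

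MMPs and ADAMTS proteases are zinc endopeptidases that cut proteins of the extracellular matrix. Collagenases open the collagen triple helix, gelatinases cut denatured collagen and basement membrane collagen, stromelysins cut a wide range of matrix proteins and activate other MMPs, and membrane-type MMPs act at the cell surface, where MMP14 activates the MMP2 proenzyme together with TIMP2. ADAMTS proteases include the enzymes that cut cartilage proteoglycans and those that trim procollagen. TIMPs bind and block the active enzymes. The proteases are made as inactive proenzymes, so transcript levels are not enzyme activity. Bone and bone tumour cells remodel a collagen matrix, for which MMP13, MMP14, MMP2 and MMP9 are well known.

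Totals per library lay between 37878751 and 76906266 counts. The targeted gene, ID3, was still counted in the libraries labelled ID3-KO, at 29.3 to 38.8 CPM (counts scaled to the library's normalized total) untreated against 47.9 to 80.7 CPM in untreated WT libraries. Its log2 difference was -0.56 (SE 0.07, adjusted p = 8.4e-06) in AID-DIvA and -1.03 (SE 0.17, adjusted p = 0.0065) in U2OS cells, the first short of the fold threshold. Without U2OS WT replicate 1, the highest of these libraries at 80.7 CPM, the U2OS difference was also short of it (-0.80, SE 0.05, adjusted p = 1.6e-17). With mocetinostat ID3 was at 103 to 129 CPM in recovered AID-DIvA WT and 61.1 to 67.3 CPM in recovered ID3-KO libraries. The latter lay above untreated AID-DIvA WT libraries, at 47.9 to 51.9 CPM. Treated U2OS libraries held 77.6 to 89.3 CPM in WT and 30.4 to 40.6 CPM in ID3-KO cells. Of the mesenchymal and osteoblast markers, VIM, SPARC and COL1A1 had group means of 434 to 893, 918 to 1510 and 1073 to 2373 CPM and RUNX2 of 12.5 to 43.1 CPM, while SP7, an osteoblast factor, had at most 0.0513 CPM. The summed level of the 7 markers of that list, set mainly by VIM, SPARC and COL1A1, was lower with mocetinostat in each comparison, at 3210 to 3340 CPM untreated and 2220 to 2660 CPM recovered in AID-DIvA WT, 3890 to 4090 and 2920 to 3000 CPM in AID-DIvA ID3-KO, 4240 to 4670 and 2790 to 3010 CPM treated in U2OS WT and 3760 to 3920 and 2690 to 2830 CPM in U2OS ID3-KO libraries. The 6 markers tested did not all fall. Their median log2 fold change was -0.16 (-0.48 to 0.95) in AID-DIvA WT and -0.11 (-0.45 to 0.83) in AID-DIvA ID3-KO cells. It was -0.64 (-1.53 to -0.15) in U2OS WT, where 1 marker was called lower, and -0.55 (-0.97 to 0.04) in U2OS ID3-KO cells. Between untreated genotypes 1 of these 6 markers was called lower in ID3-KO cells of each line, and none was called higher. Their log2 differences lay between -2.21 and 0.68 in AID-DIvA and between -1.73 and 0.56 in U2OS cells. The summed level of the leukocyte markers PTPRC, ITGAM, CD14 and MPO was 0.859 to 2.07 CPM in untreated and 2.07 to 5.79 CPM in treated or recovered libraries. ITGAM, the one called higher in all 4 treatment comparisons (log2 fold changes 1.2 to 3.0), lay at 0.412 to 1.66 CPM untreated and 1.5 to 5.55 CPM treated or recovered, and MPO had no count in 3 of the 8 groups. The leukocyte markers did not all rise. Of the 2 tested in recovered AID-DIvA WT cells, 1 was called lower (log2 fold change -1.26). Of the 3 tested in treated U2OS ID3-KO cells, 1 was lower by the adjusted p alone (-0.96). The endothelial markers CDH5 and VWF summed to 1.6 to 3.19 CPM untreated and 2.74 to 4.32 CPM recovered in AID-DIvA and to 3.14 to 7.26 CPM untreated and 5.21 to 11 CPM treated in U2OS libraries, with CDH5 called higher in all 4 comparisons (1.68 to 2.76). The epithelial markers EPCAM, CDH1 and KRT18 summed to 94.6 to 121 CPM untreated and 125 to 194 CPM recovered in AID-DIvA and to 97.5 to 138 CPM untreated and 107 to 134 CPM treated in U2OS libraries. The part of these shifts in the results below was not tested. Some libraries stood apart from their replicates. Untreated U2OS WT replicate 1 differed from replicates 2 and 3 by a chi-square per gene of 92.4 and 82 against 4.06 between those, and recovered AID-DIvA WT replicate 1 by 12.2 and 15.4 against 2.62, recovered AID-DIvA ID3-KO replicate 1 by 18.1 and 24.1 against 4.21, and the untreated AID-DIvA ID3-KO libraries by 10.7 to 24.5 from each other. Results that rest on 1 of these libraries are given with and without it. Recovered AID-DIvA WT replicate 1 was singled out further because it held the highest MMP3 and MMP9 values of its group. In bulk samples fewer cells of a kind and less transcript per cell cannot be told apart.

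Promoter sequences were taken from a RefSeq table on build GRCh38.p14, another build than the counts, which held 27 of the 47 members. The 150 bases before the annotated start of 6 members are shown for what their transcripts did below: MMP10 and ADAMTS14 as members that rose in each treatment comparison, MMP7 as a neighbour of MMP10 that did not, MMP14 and MMP15 as membrane-type enzymes that moved in opposite directions, and ADAMTS6 as a member that rose after recovery and fell in treated U2OS ID3-KO cells. Capitals mark a TATA box (the letters TATAAA, which read TTTATA on the other strand), an AP-1 site (TGAGTCA, which reads TGACTCA there) or a GC box (GGGCGG, which reads CCGCCC there), each searched on both strands, and neighbouring GC boxes can share letters.
MMP10 (chr11:102780629-102780778, minus strand): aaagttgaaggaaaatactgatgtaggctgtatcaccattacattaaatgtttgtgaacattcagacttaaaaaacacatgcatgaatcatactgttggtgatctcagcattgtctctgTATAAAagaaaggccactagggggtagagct
MMP7 (chr11:102530748-102530897, minus strand): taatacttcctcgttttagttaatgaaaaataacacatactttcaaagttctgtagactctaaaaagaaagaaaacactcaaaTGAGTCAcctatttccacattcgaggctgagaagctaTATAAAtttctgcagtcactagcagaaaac
ADAMTS14 (chr10:70672356-70672505, plus strand): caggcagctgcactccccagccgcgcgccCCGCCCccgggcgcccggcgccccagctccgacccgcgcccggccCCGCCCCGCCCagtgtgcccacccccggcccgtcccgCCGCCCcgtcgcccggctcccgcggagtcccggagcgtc
MMP14 (chr14:22836435-22836584, plus strand): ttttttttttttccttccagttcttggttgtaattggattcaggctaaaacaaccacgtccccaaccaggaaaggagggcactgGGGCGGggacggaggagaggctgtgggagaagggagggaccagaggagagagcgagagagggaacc
MMP15 (chr16:58025604-58025753, plus strand): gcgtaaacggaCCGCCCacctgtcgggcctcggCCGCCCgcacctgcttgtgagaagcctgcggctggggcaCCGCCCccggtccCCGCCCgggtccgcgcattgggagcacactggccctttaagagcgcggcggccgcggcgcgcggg
ADAMTS6 (chr5:65481921-65482070, minus strand): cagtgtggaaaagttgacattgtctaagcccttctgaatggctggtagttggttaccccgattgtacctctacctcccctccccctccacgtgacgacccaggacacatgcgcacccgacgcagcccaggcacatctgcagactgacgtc

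The TATA letters began 31 bases before the start in MMP10 and 30 bases before it in MMP7, which also held the only AP-1 letters among the 27 members with an entry, 67 bases before the start. TATA letters were found in 7 of the 27 members with an entry and in 4 of the 5 such genes of the chromosome 11 MMP cluster, against 6.71% of all 35116 promoters. In MMP20 and MMP8 of that cluster the letters began farther away, 72 and 110 bases before the start. Members were counted by gene and the background by promoter. GC box letters were found in 17 of the 27 members and in none of those 5 cluster genes, against 36.8% of all promoters, and AP-1 letters in 1 of 27 against 2.89%. ADAMTS14 and MMP15 each held 4 GC boxes, MMP14 held 1, and ADAMTS6 held none of the 3 motifs. These are matches of letters in a short window and no measurement of binding.

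Levels between genes were compared per length, as CPM per kb of exon. On counts from either strand TIMP1 ranked first and MMP2 second in all 8 groups. In recovered AID-DIvA ID3-KO cells, however, MMP2 at 46.51 ± 4.53 and TIMP2 at 44.28 ± 1.14 CPM per kb (SD, n = 3) lay within their spread. In untreated AID-DIvA WT cells TIMP1 and MMP2 stood at 162.3 ± 2.47 (SD, n = 3) and 65.9 ± 2.48 CPM per kb. MMP9 at 30.1 ± 3.45 and MMP14 at 27.8 ± 0.96 followed, which did not differ beyond their spread on these counts. In untreated AID-DIvA ID3-KO cells MMP14 at 37.4 ± 2.59 and TIMP2 at 35.95 ± 0.42 CPM per kb took the next places, also within their spread on these counts, and MMP9 was at 6.46 ± 0.35 CPM per kb. TIMP2 and MMP9 had more counts on their own strand than from either strand, as given below. Ranks on own-strand counts were not tested. Of the 47 members, 31 reached a mean of 1 CPM in at least 1 group (14 MMP, 14 ADAMTS and 3 TIMP genes), and 16 stayed below it in every group. MMP27 had no count in any library, MMP26 had 1 count and MMP8 had 4 counts over all 24 libraries. Those 3, MMP23A and ADAMTS4 were too low to test in any comparison.

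The direction of reads set a further limit. The kit keeps the strand, and for most members almost all counts lay on the gene's own strand. For MMP20, however, 98.0% of the counts by strand (638 forward against 13 reverse) lay on the other strand, where RP11-817J15.2 overlaps it, for MMP25 82.9%, where RP11-473M20.7 overlaps it, and for ADAMTS18 66.9%. Values printed for these 3 genes are counts from either strand and need not be transcripts of the genes named. Smaller shares lay on the other strand for ADAMTS4 (46.6%), ADAMTS19 (36.8%), MMP1 (18.5%) and MMP19 (15.9%). MMP23A and MMP23B are near-identical copies, between which reads can be split, and TIMP2 shares its strand with the overlapping gene DDC8. Over all libraries TIMP2 had 262059 counts from either strand against 323521 on its own strand, and MMP9 56855 against 69511. TIMP3 had 67261 against 82677 and MMP24 67108 against 82498, while MMP2 had 444119 against 443750. Levels per length of TIMP2, MMP9, TIMP3 and MMP24 are therefore lower here than own-strand counts would give.

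The 4 treatment comparisons asked which members changed with mocetinostat in each genotype and stage. A member was called higher or lower when the adjusted p of edgeR's quasi-likelihood test was below 0.05 and the log2 fold change passed 1 or -1. In recovered AID-DIvA WT cells 7 of the 32 members tested rose, against 4.86% of all genes tested, and 2 fell, against 2.52%. In recovered AID-DIvA ID3-KO cells 8 of 34 rose (all genes 4.9%) and 3 fell (2.56%). In treated U2OS WT cells 12 of 37 rose (all genes 13.6%) and 1 fell (5.06%), and in treated U2OS ID3-KO cells 19 of 40 rose (14.6%) and 3 fell (5.77%). These rises include MMP20 in all but recovered AID-DIvA WT cells and ADAMTS18 in treated U2OS ID3-KO cells. Counts of both lay mostly on the other strand over all libraries. The median log2 fold change of the members was 0.41, 0.36, 0.79 and 0.93 in these 4 comparisons, where that of all genes tested lay between -0.02 and 0.01. ADAMTS14, MMP10, MMP13 and MMP3 rose in all 4 comparisons, of the 22 members that rose in any. No member fell in all 4, of the 7 that fell in any. By the adjusted p alone, with no fold threshold, 16 members were higher and 8 lower in recovered AID-DIvA WT cells (all genes 23.9% and 23.0%), 16 and 8 in recovered ID3-KO cells (20.2% and 19.9%), 24 and 6 in treated U2OS WT cells (26.0% and 22.9%) and 29 and 8 in treated U2OS ID3-KO cells (35.8% and 34.0%). The recovered genotypes shared 5 called rises, 71.4% of those in WT and 62.5% of those in ID3-KO cells, and the treated U2OS genotypes shared 11, 91.7% and 57.9%.

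**Figure D1:**
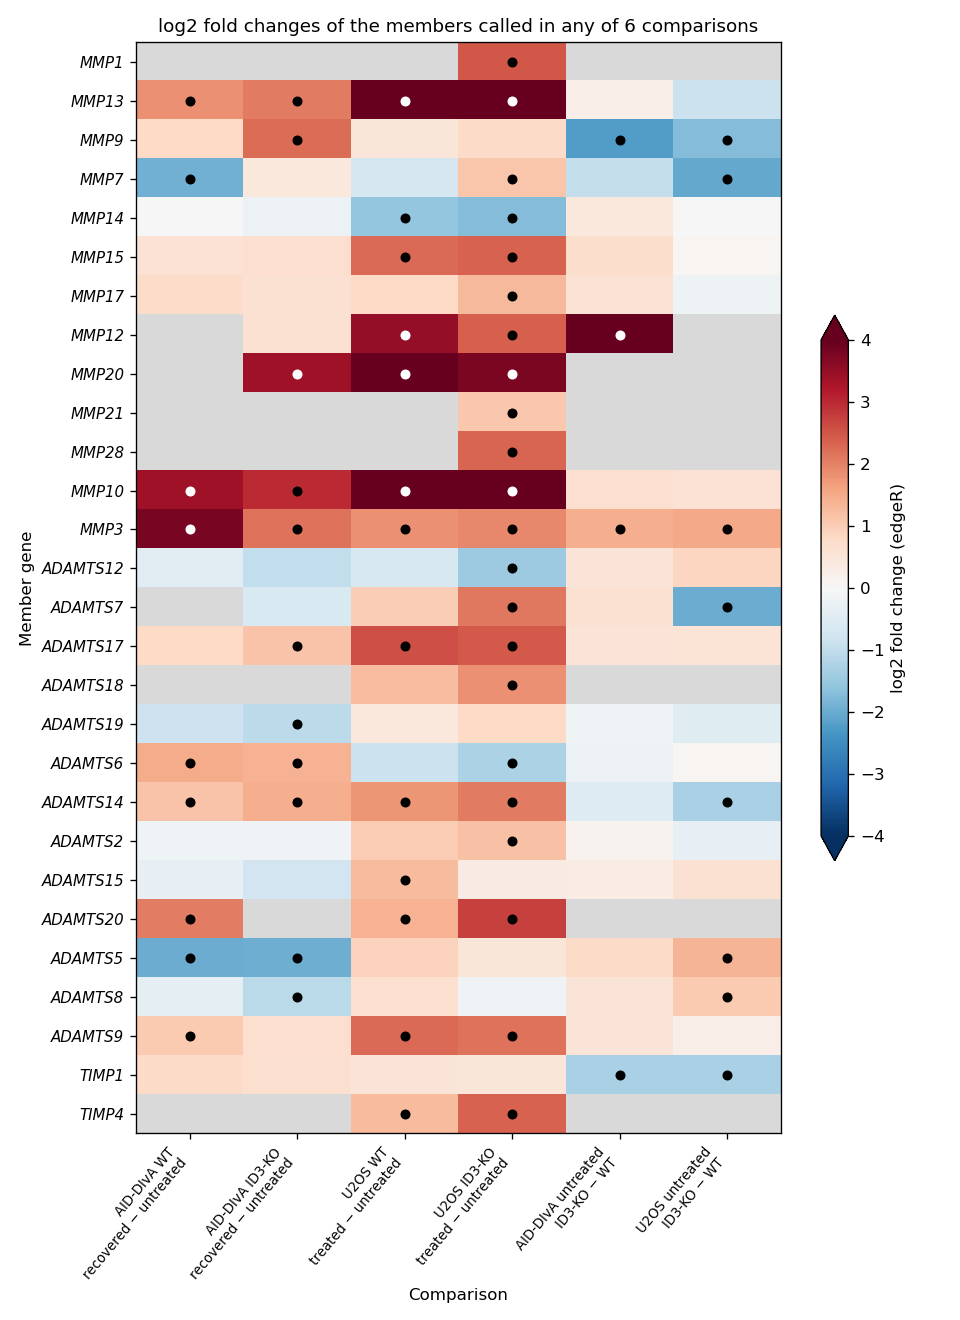
Colour gives the edgeR log2 fold change of each of the 28 members called in any of 6 comparisons (rows) in each comparison (columns), with the scale ending at 4 in both directions, grey for not tested and a dot for a call. ADAMTS14, MMP10, MMP13 and MMP3 carry a dot in all 4 treatment columns, and the reads behind MMP20 lie mostly on the opposite strand.

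The largest rises of members in the treatment comparisons were in a cluster of 9 MMP genes on chromosome 11 (GRCh37 chr11:102391239-102826463), which holds MMP7, MMP20, MMP27, MMP8, MMP10, MMP1, MMP3, MMP12 and MMP13 in this order. Without MMP20, the cluster had 3 of 4 tested genes called higher in recovered AID-DIvA WT cells (all genes 4.86%) and 3 of 5 in recovered AID-DIvA ID3-KO cells (4.9%). It had 4 of 5 in treated U2OS WT cells (13.6%) and 6 of 6 in treated U2OS ID3-KO cells (14.6%). The rest of these 8 genes were too low to test. MMP7 was the exception in recovered AID-DIvA WT cells, where it fell. Neighbouring genes are no independent samples, and these counts are given as a description.

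MMP3, stromelysin 1, a broad matrix protease and activator of other MMPs (chr11:102706532-102714534, GRCh37), was at 1.98, 3.01 and 2.4 CPM in untreated and 53.9, 25.8 and 23.4 CPM in recovered AID-DIvA WT libraries. The groups did not overlap, with replicate 1 after recovery far above the other replicates (log2 fold change 3.8, SE 0.49, adjusted p = 0.0036). Without that replicate the log2 fold change was 3.32 (adjusted p = 3.1e-19). In AID-DIvA ID3-KO libraries MMP3 was at 6.72, 7.11 and 6.65 CPM untreated and 26.6, 34.3 and 31.5 CPM recovered, again with no overlap (log2 fold change 2.18, SE 0.11, adjusted p = 8.0e-07). The U2OS WT libraries held 1.01, 0.73 and 0.663 CPM untreated and 2.89, 2.58 and 3.09 CPM treated (log2 fold change 1.84, SE 0.19, adjusted p = 1.7e-04). In U2OS ID3-KO libraries the values were 2.48, 2.33 and 2.14 and 11, 7.75 and 7.49 CPM (log2 fold change 1.93, SE 0.14, adjusted p = 3.5e-10). The response in U2OS minus that in AID-DIvA cells was negative, at a log2 difference of -1.11, SE 0.27, adjusted p = 0.0014.

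MMP3 was also higher in the ID3-KO cells before any treatment. The log2 difference between untreated ID3-KO and WT cells was 1.44, SE 0.11, adjusted p = 6.2e-08 in AID-DIvA cells and 1.52, SE 0.19, adjusted p = 0.0022 in U2OS cells, and in both lines every ID3-KO library lay above every WT library. No other member was called higher in the ID3-KO cells of both lines.

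MMP10, stromelysin 2, with targets much like those of MMP3 (chr11:102641234-102651359), rose from 0.283, 0.309 and 0.111 to 3.27, 2 and 1.89 CPM in AID-DIvA WT cells (log2 fold change 3.39, SE 0.32, adjusted p = 4.0e-06) and from 0.464, 0.355 and 0.302 to 3.19, 3.44 and 2.28 CPM in AID-DIvA ID3-KO cells (log2 fold change 2.99, SE 0.21, adjusted p = 5.5e-06). In U2OS WT cells it went from 0.186, 0.0413 and 0.208 to 2.25, 2.38 and 2.55 CPM (log2 fold change 4.1, SE 0.37, adjusted p = 8.5e-05), and in U2OS ID3-KO cells from 0.271, 0.202 and 0.16 to 4.82, 4.8 and 4.19 CPM (log2 fold change 4.45, SE 0.19, adjusted p = 1.4e-15). All treated and recovered libraries lay above all untreated libraries, and the latter held 3 to 27 counts each. Its promoter, with the TATA letters near the start, is the first shown above. The response was larger in U2OS than in AID-DIvA cells by a log2 difference of 1.09, SE 0.35, adjusted p = 0.0088.

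MMP11, the third stromelysin, which unlike the others is activated inside the cell, had 0 to 36 counts per library and was too low to test in any treatment or genotype comparison. From the counts on its own strand it was called higher in treated U2OS WT (log2 fold change 2.45, SE 0.59, adjusted p = 0.01) and ID3-KO cells (1.86, SE 0.45, adjusted p = 7.6e-04). From the counts of either strand, without untreated U2OS WT replicate 1 it was called higher in treated U2OS WT cells (log2 fold change 2.86, adjusted p = 1.6e-04). In that fit the filter on low counts asks for fewer libraries, which lets MMP11 be tested.

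Among the collagenases, MMP13, collagenase 3 of cartilage and bone (chr11:102813724-102826463), rose in every treatment comparison. It was at 0.202, 0.189 and 0.158 CPM in untreated and 0.939, 0.506 and 0.478 CPM in recovered AID-DIvA WT libraries (log2 fold change 1.83, SE 0.33, adjusted p = 5.2e-04) and at 0.24, 0.219 and 0.208 and 0.827, 0.936 and 1.06 CPM in the ID3-KO ones (log2 fold change 2.09, SE 0.21, adjusted p = 5.8e-05). The treated U2OS cells reached far higher levels. U2OS WT libraries held 0.155, 0.344 and 0.417 CPM untreated and 5, 4.32 and 5.12 CPM treated (log2 fold change 4.0, SE 0.27, adjusted p = 2.0e-05), and U2OS ID3-KO libraries 0.116, 0.202 and 0.178 and 7.06, 7.48 and 7.68 CPM (log2 fold change 5.45, SE 0.17, adjusted p = 6.6e-18). No group with treatment overlapped its untreated group. The responses in U2OS and AID-DIvA cells differed by 2.77, SE 0.3, adjusted p = 1.1e-08, the largest positive value among the 42 members tested. Without recovered AID-DIvA WT replicate 1 the log2 fold change in AID-DIvA WT cells was 1.44 (adjusted p = 7.0e-04). Without untreated U2OS WT replicate 1 MMP13 was called lower in untreated U2OS ID3-KO than in WT cells (-1.16, adjusted p = 0.028), which it was not with all libraries (-0.85, SE 0.46, adjusted p = 0.26).

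MMP1, the interstitial collagenase, stayed below 1 CPM. It rose in treated U2OS ID3-KO cells, from 3, 4 and 2 counts to 21, 17 and 18 counts (log2 fold change 2.49, SE 0.46, adjusted p = 4.9e-05), and was not tested in the other treatment comparisons, where it had at most 22 counts per library. MMP8, the collagenase of neutrophils, had no count in 21 libraries.

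**Figure D2:**
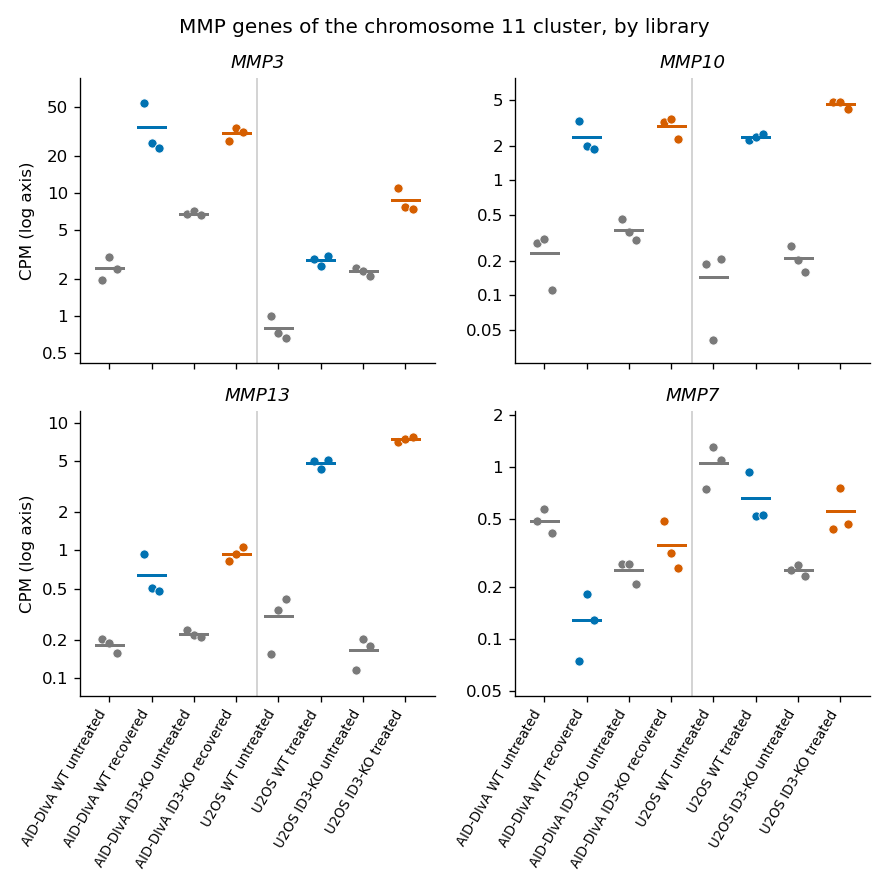
Each point is the CPM of 1 library on a log axis, 3 libraries in each of 8 groups, and the bar is the group mean. MMP3, MMP10 and MMP13 lie higher in every treated or recovered library than in the untreated libraries of the same cells, and MMP7 lies lower in recovered AID-DIvA WT libraries.

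MMP7, matrilysin, a small protease without the hemopexin domain (chr11:102391239-102401484), moved in a direction that depended on the cells. It fell in recovered AID-DIvA WT cells, from 0.485, 0.567 and 0.411 to 0.0752, 0.184 and 0.129 CPM (log2 fold change -1.92, SE 0.34, adjusted p = 3.8e-04), at 4 to 8 counts per recovered library. In AID-DIvA ID3-KO cells the libraries overlapped, at 0.275, 0.273 and 0.208 CPM untreated and 0.485, 0.317 and 0.26 CPM recovered (log2 fold change 0.43, SE 0.29, adjusted p = 0.27). The response in ID3-KO minus that in WT cells was 2.35, SE 0.45, adjusted p = 0.015, which rested on untreated WT replicate 2, without which it was 2.23 (adjusted p = 0.052). U2OS WT libraries overlapped too, at 0.743, 1.31 and 1.1 and 0.932, 0.516 and 0.527 CPM (log2 fold change -0.66, SE 0.32, adjusted p = 0.12). U2OS ID3-KO libraries rose from 0.252, 0.27 and 0.232 to 0.437, 0.752 and 0.469 CPM (log2 fold change 1.12, SE 0.31, adjusted p = 0.0029), a call lost without treated replicate 2 (0.85, adjusted p = 0.034). Untreated U2OS ID3-KO cells had less MMP7 than WT cells (log2 difference -2.06, SE 0.29, adjusted p = 0.0035).

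MMP12, macrophage elastase (chr11:102733467-102745764), was close to 0 in untreated WT cells of both lines and was counted in ID3-KO cells. Untreated AID-DIvA WT libraries held 0, 2 and 1 counts and ID3-KO libraries 18, 25 and 19 counts, a ratio of depth-scaled counts of 19.2 with a 95% exact interval of 6.26 to 95.4 that covers counting error only (edgeR log2 difference 4.08, SE 0.53, adjusted p = 1.5e-05, 4.93 without untreated WT replicate 2). Recovered AID-DIvA WT libraries held 12, 8 and 9 counts, all above the untreated ones, and were too low to test. After recovery the ID3-KO libraries held 0.513, 0.438 and 0.607 CPM against 0.309, 0.342 and 0.359 CPM before, which did not pass the test (log2 fold change 0.61, SE 0.23, adjusted p = 0.059), and the difference between the responses of the genotypes was -2.69, SE 0.64, adjusted p = 0.053. In U2OS WT cells 0, 1 and 3 untreated counts stood against 15, 12 and 24 treated counts, a ratio of 12.6 (4.64 to 48.1, edgeR log2 fold change 3.52, SE 0.71, adjusted p = 0.0044, 4.85 without untreated replicate 3). That fold change was 2.96 (adjusted p = 3.5e-04) without untreated replicate 1, the library that stood apart. U2OS ID3-KO libraries rose from 0.194, 0.118 and 0.321 to 0.706, 1.17 and 1.39 CPM (log2 fold change 2.38, SE 0.32, adjusted p = 8.3e-07). The macrophage and leukocyte markers PTPRC, CD14 and MPO had group means of at most 0.35, 0.388 and 0.0461 CPM, while ITGAM, also a macrophage marker, was higher with mocetinostat as given above. Its part in the MMP12 values was not tested.

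The counts listed under MMP20, the enamel protease, rose in 3 comparisons, with log2 fold changes of 3.39 in recovered AID-DIvA ID3-KO, 4.17 in treated U2OS WT and 3.78 in treated U2OS ID3-KO cells (adjusted p = 5.6e-05, 0.0012 and 7.0e-08). The U2OS WT value rested on 3 untreated counts, with a ratio of 19.8 (6.46 to 98.7). It went to 4.91 without untreated replicate 2 and to 3.62 without untreated replicate 1. The U2OS ID3-KO value went to 4.38 without untreated replicate 3. On counts of the gene's own strand MMP20 was too low to test in any comparison, with 13 counts over all libraries.

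Both gelatinases were lower in untreated ID3-KO than in WT cells, MMP9 past the fold threshold. MMP9, gelatinase B (chr20:44637547-44645200), was at 77.4, 71.9 and 61.5 CPM in untreated AID-DIvA WT and 15.4, 14.2 and 15.7 CPM in untreated ID3-KO libraries (log2 difference -2.24, SE 0.08, adjusted p = 3.9e-11). In untreated U2OS cells it was at 23.3, 23.2 and 21.4 and 7.29, 6.49 and 6.93 CPM (log2 difference -1.72, SE 0.09, adjusted p = 4.2e-05). Every ID3-KO library lay below every WT library of its line.

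After recovery MMP9 rose in AID-DIvA ID3-KO cells to 85.1, 68.6 and 57.3 CPM (log2 fold change 2.22, SE 0.12, adjusted p = 1.1e-06). In AID-DIvA WT cells it stood at 164, 106 and 95.3 CPM, with no overlap with the untreated libraries but with replicate 1 far above the others, and missed the adjusted threshold (log2 fold change 0.8, SE 0.25, adjusted p = 0.053, adjusted p = 0.042 on counts of the gene's own strand, and 0.53 with an adjusted p of 0.047 without replicate 1). The responses of the genotypes differed by 1.42, SE 0.26, adjusted p = 0.022. That difference was lost without any 1 of 8 of the 12 libraries (log2 difference 1.29 to 1.46, adjusted p = 0.052 to 0.13), and without recovered WT replicate 1 it was 1.7 (adjusted p = 0.0011). In treated U2OS libraries MMP9 was at 32.9, 30.5 and 29.9 CPM in WT and 12.6, 10.7 and 11.4 CPM in ID3-KO cells, above the untreated libraries but short of the fold threshold (log2 fold changes 0.47 and 0.76, adjusted p = 0.0018 and 1.5e-08). The integrin gene ITGAM, a leukocyte marker, went the same way as MMP9 in AID-DIvA ID3-KO cells, from 0.412, 0.478 and 0.774 to 5.27, 4.03 and 3.92 CPM, and its part in the result was not tested. The other leukocyte marker tested there had a log2 fold change of -0.77 and did not pass the test.

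MMP2, gelatinase A (chr16:55423612-55540603), was the most abundant protease per length. It was lower in untreated ID3-KO than in WT cells in both lines but did not reach the fold threshold, at 221, 203 and 210 against 337, 325 and 312 CPM in AID-DIvA cells (log2 difference -0.64, SE 0.05, adjusted p = 1.9e-08) and 289, 282 and 292 against 540, 579 and 568 CPM in U2OS cells (log2 difference -0.97, SE 0.07, adjusted p = 1.7e-04). Recovered AID-DIvA cells held 323, 343 and 341 CPM in WT and 253, 226 and 209 CPM in ID3-KO libraries, with log2 fold changes of 0.06 and 0.12 and adjusted p of 0.32 and 0.19. Treated U2OS cells held less, 375, 346 and 340 CPM in WT (log2 fold change -0.66, SE 0.07, adjusted p = 2.3e-04) and 241, 234 and 242 CPM in ID3-KO libraries (log2 fold change -0.26, SE 0.04, adjusted p = 7.0e-06). The U2OS responses differed between the genotypes by 0.4, SE 0.08, adjusted p = 0.016, a call lost without any 1 of 5 libraries (0.37 to 0.41, adjusted p = 0.053 to 0.068).

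Of the 3 TIMPs tested between untreated genotypes, 1 was called, TIMP1, in both lines. TIMP1 (chrX:47441712-47446188), which inhibits most soluble MMPs, was the most abundant member per length and was lower in ID3-KO cells. Untreated AID-DIvA cells held 292, 294 and 285 CPM in WT and 122, 114 and 126 CPM in ID3-KO libraries (log2 difference -1.29, SE 0.05, adjusted p = 1.3e-11), and untreated U2OS cells 544, 374 and 393 and 178, 177 and 179 CPM (log2 difference -1.3, SE 0.14, adjusted p = 0.0012). WT replicate 1 was the high value in U2OS cells, and without it the difference was -1.10 (adjusted p = 2.2e-26). With mocetinostat TIMP1 was higher, below the fold threshold, in all 4 comparisons, at 481, 492 and 489 CPM in recovered WT and 212, 181 and 172 CPM in recovered ID3-KO cells (log2 fold changes 0.76 and 0.64), and at 634, 618 and 617 and 264, 227 and 246 CPM in treated U2OS cells (0.52 and 0.47), with adjusted p between 4.3e-09 and 0.018. TIMP1 and MMP9 were the members called lower in ID3-KO cells of both lines, all of the 2 calls in AID-DIvA and 40% of the 5 calls in U2OS cells.

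TIMP2 (chr17:76849059-76921469), which with MMP14 takes part in the activation of MMP2, went the other way from TIMP1 between the genotypes, short of the fold threshold. It was at 111, 113 and 114 CPM in untreated AID-DIvA WT and 203, 204 and 200 CPM in ID3-KO libraries (log2 difference 0.82, SE 0.04, adjusted p = 2.6e-10), and at 137, 147 and 148 and 203, 205 and 206 CPM in U2OS cells (log2 difference 0.51, SE 0.07, adjusted p = 0.0028). No library of a genotype overlapped with the other genotype of its line. TIMP2 was called in no comparison, with log2 fold changes of 0.26 to 0.51 across the treatment comparisons.

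**Figure D3:**
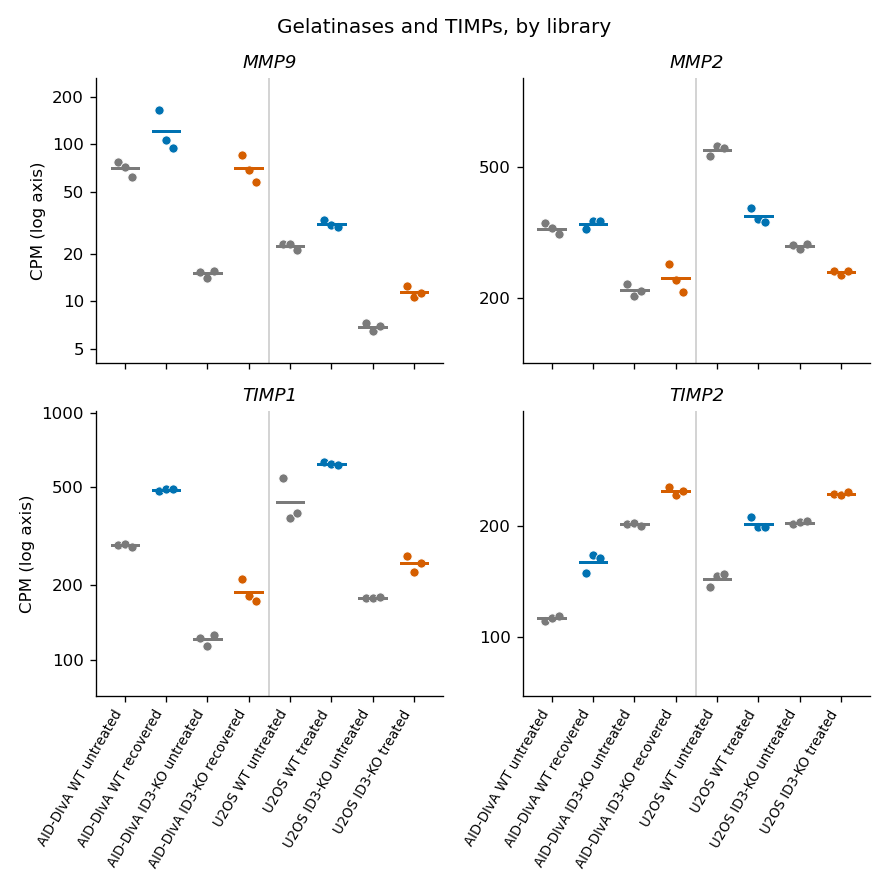
Each point is the CPM of 1 library on a log axis and the bar is the mean of the 3 libraries of a group. MMP9, MMP2 and TIMP1 are lower and TIMP2 is higher in every untreated ID3-KO library than in every untreated WT library of the same line, and MMP9 in recovered AID-DIvA ID3-KO libraries lies at 57.3 to 85.1 CPM against 14.2 to 15.7 CPM untreated.

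TIMP3 (chr22:33197687-33259030), the TIMP that binds to the matrix and also inhibits ADAMTS proteases, moved in opposite directions at the 2 stages, each time below the fold threshold. It was at 51.4, 51.5 and 49.1 CPM in untreated and 25.6, 32.4 and 33.2 CPM in recovered AID-DIvA WT libraries (log2 fold change -0.73, SE 0.08, adjusted p = 1.4e-05), and at 57.5, 58.7 and 59.5 and 39.8, 39.1 and 38.4 CPM in ID3-KO cells (log2 fold change -0.58, SE 0.06, adjusted p = 6.4e-05). In U2OS WT libraries it went from 39.4, 34.5 and 35.2 to 56.1, 56.9 and 56.6 CPM (log2 fold change 0.65, SE 0.08, adjusted p = 3.6e-04) and in U2OS ID3-KO libraries from 41.8, 40 and 40.1 to 71.8, 69.7 and 74.1 CPM (log2 fold change 0.83, SE 0.05, adjusted p = 3.0e-13). The responses differed between U2OS and AID-DIvA cells by 1.39, SE 0.07, adjusted p = 1.0e-14. TIMP4, a TIMP of few tissues, rose on 2 to 27 counts per library in U2OS cells (log2 fold changes 1.28, SE 0.44, adjusted p = 0.043 in WT and 2.35, SE 0.45, adjusted p = 8.1e-05 in ID3-KO). The WT call was lost without any 1 of 4 libraries, untreated replicate 2 or 3 or treated replicate 1 or 2 (1.09 to 1.46, adjusted p = 0.071 to 0.15).

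Among the membrane-type MMPs, MMP14 fell and MMP15 rose under mocetinostat in U2OS cells. MMP14 (chr14:23305766-23318236), the activator of MMP2 at the cell surface, was at 194, 175 and 168 CPM in untreated and 63.6, 59.2 and 59.6 CPM in treated U2OS WT libraries (log2 fold change -1.55, SE 0.08, adjusted p = 6.5e-06), and at 179, 178 and 183 and 53.9, 51.1 and 55.1 CPM in the ID3-KO ones (log2 fold change -1.75, SE 0.05, adjusted p = 3.6e-19). In AID-DIvA cells the levels after recovery were 112, 122 and 130 CPM against 127, 125 and 119 CPM untreated in WT (log2 fold change -0.02, SE 0.06, adjusted p = 0.75) and 156, 132 and 137 against 166, 156 and 179 CPM in ID3-KO libraries (log2 fold change -0.24, SE 0.07, adjusted p = 0.028), neither past the fold threshold. The responses differed by -1.52, SE 0.07, adjusted p = 1.3e-15 between U2OS and AID-DIvA cells.

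MMP15 (chr16:58059470-58080805), another transmembrane MMP, rose from 25.6, 22.9 and 20.9 to 112, 109 and 110 CPM in U2OS WT cells (log2 fold change 2.26, SE 0.09, adjusted p = 2.7e-06) and from 25.4, 24.1 and 23.8 to 132, 113 and 126 CPM in U2OS ID3-KO cells (log2 fold change 2.35, SE 0.06, adjusted p = 1.2e-19). After recovery it stood at 15.8, 19.7 and 20.2 CPM against 12.4, 13.1 and 11.8 CPM in AID-DIvA WT (log2 fold change 0.58, SE 0.09, adjusted p = 1.3e-04) and at 36.4, 32.8 and 29.8 against 21.5, 18.9 and 21.4 CPM in ID3-KO libraries (log2 fold change 0.68, SE 0.08, adjusted p = 2.1e-04), higher but below the fold threshold. The difference between the responses was 1.67, SE 0.09, adjusted p = 2.3e-14. Per length, MMP15 ranked above MMP14 in both treated U2OS groups, at 24.96 ± 0.379 against 13.6 ± 0.553 CPM per kb in WT and 28.02 ± 2.2 against 11.95 ± 0.465 in ID3-KO cells, and MMP14 ranked above MMP15 in all 4 untreated groups.

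MMP17, a membrane-type MMP held by a lipid anchor, rose in U2OS ID3-KO cells, from 3.78, 3.91 and 4.08 to 11.1, 8.93 and 9.09 CPM (log2 fold change 1.31, SE 0.1, adjusted p = 2.9e-11), and was higher below the fold threshold in the other 3 treatment comparisons (log2 fold changes 0.60 to 0.81, adjusted p = 3.7e-04 to 0.0021). The response of MMP24 differed between the U2OS genotypes: WT libraries were at 33.8, 36.1 and 33.2 CPM untreated and 53.6, 55.1 and 52 CPM treated, ID3-KO libraries at 54.3, 53.6 and 55.8 and 52.7, 46.1 and 48.1 CPM, and the responses differed by -0.79, SE 0.09, adjusted p = 2.3e-04. MMP24 shares its place with the antisense gene MMP24-AS1, and on counts of its own strand that difference was -0.73 (adjusted p = 6.3e-04). MMP16 was at 26.9, 39.9 and 41.3 and 62.1, 63 and 64.6 CPM in U2OS WT and at 43, 44.1 and 45.1 and 75.4, 82.4 and 81.9 CPM in ID3-KO libraries (log2 fold changes 0.82 and 0.86, below the fold threshold), against 58.9, 55.2 and 62.3 and 66.3, 57.1 and 56.1 CPM in AID-DIvA WT and 59.6, 58.2 and 50.2 and 48.1, 55.4 and 56.7 CPM in ID3-KO libraries (0.03 and -0.06). Its responses differed between U2OS and AID-DIvA cells by 0.86, SE 0.11, adjusted p = 1.6e-07. MMP25, whose reads lie mostly on the other strand, was at 1.25 to 1.91 CPM in the group means and was called in no comparison.

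Of the remaining MMPs, MMP19 lay between 14.5 and 22.6 CPM in the group means and was called in no comparison. MMP28, epilysin, rose in U2OS ID3-KO cells from 3, 9 and 6 to 34, 29 and 35 counts (log2 fold change 2.32, SE 0.36, adjusted p = 5.2e-06), while the U2OS WT libraries held 0 to 2 counts with or without treatment and were not tested. MMP21 rose in U2OS ID3-KO cells on 2 to 14 counts per library (log2 fold change 1.09, SE 0.47, adjusted p = 0.042), a call lost without any 1 of 5 of the 6 libraries (0.75 to 1.19, adjusted p = 0.065 to 0.19). MMP23B had 1 to 16 counts and MMP23A 0 to 5 counts per library.

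**Figure D4:**
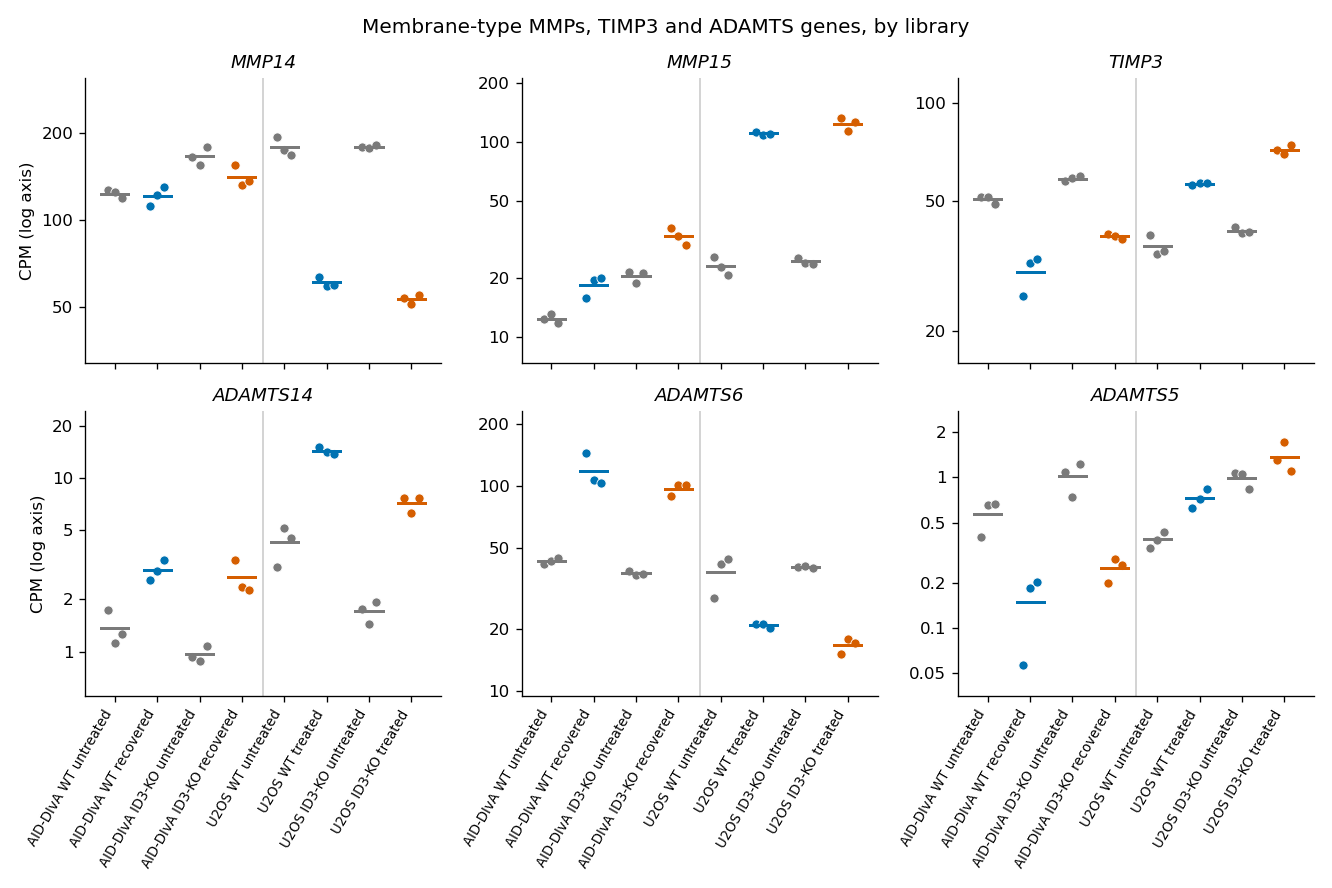
Points are CPM of single libraries on a log axis with the group mean as a bar, AID-DIvA groups to the left and U2OS groups to the right of the grey line. MMP14 is lower and MMP15 higher in treated U2OS libraries, TIMP3, ADAMTS6 and ADAMTS5 move in opposite directions on the sides of the line, and ADAMTS14 is higher with treatment on both.

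The procollagen N-propeptidases ADAMTS2, ADAMTS3 and ADAMTS14 trim fibrillar procollagens. ADAMTS14 (chr10:72432559-72522197) rose in all 4 treatment comparisons, from 1.74, 1.12 and 1.27 to 2.59, 2.9 and 3.37 CPM in AID-DIvA WT (log2 fold change 1.13, SE 0.17, adjusted p = 8.7e-05), from 0.928, 0.888 and 1.08 to 3.39, 2.37 and 2.28 CPM in AID-DIvA ID3-KO (log2 fold change 1.46, SE 0.17, adjusted p = 1.4e-04), from 3.07, 5.19 and 4.53 to 15.2, 14.2 and 13.7 CPM in U2OS WT (log2 fold change 1.76, SE 0.18, adjusted p = 1.5e-04) and from 1.76, 1.45 and 1.94 to 7.7, 6.32 and 7.7 CPM in U2OS ID3-KO cells (log2 fold change 2.09, SE 0.12, adjusted p = 5.4e-13). No treated or recovered library overlapped the untreated libraries of its cells. Untreated U2OS ID3-KO cells held less of it than WT cells (log2 difference -1.31, SE 0.22, adjusted p = 0.0075). ADAMTS2 rose in U2OS ID3-KO cells, from 7.54, 7.76 and 8 to 18.1, 16.2 and 18 CPM (log2 fold change 1.17, SE 0.07, adjusted p = 7.2e-13), and in U2OS WT cells, from 9.82, 9.39 and 9.91 to 18.9, 19.6 and 19.2 CPM, its log2 fold change of 1.0 lay just under the threshold (SE 0.07, adjusted p = 3.0e-05), and it passed without untreated replicate 1. ADAMTS3, at 36.3 to 55.9 CPM in the group means, was called in no comparison.

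ADAMTS6 (chr5:64444563-64777747), a protease linked to fibrillin microfibrils, had the most negative difference between the stages. It rose from 41.6, 43.2 and 44.5 to 145, 107 and 103 CPM in AID-DIvA WT cells (log2 fold change 1.47, SE 0.12, adjusted p = 4.4e-05) and from 38.3, 36.7 and 37.3 to 89.4, 101 and 101 CPM in AID-DIvA ID3-KO cells (log2 fold change 1.38, SE 0.08, adjusted p = 1.2e-06). It fell from 40.2, 40.5 and 39.9 to 15.1, 18 and 17.2 CPM in U2OS ID3-KO cells (log2 fold change -1.26, SE 0.06, adjusted p = 1.2e-14). U2OS WT libraries held 28.3, 41.6 and 43.8 CPM untreated and 21.3, 21.1 and 20.3 CPM treated, lower but short of the fold threshold (log2 fold change -0.85, SE 0.15, adjusted p = 0.0027). Without untreated replicate 1 it was called lower there (-1.02, adjusted p = 8.5e-24). The response in U2OS minus that in AID-DIvA cells was -2.48, SE 0.12, adjusted p = 6.4e-15.

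Of the proteoglycanases, which cut aggrecan, versican and related proteins, ADAMTS5 (chr21:28290231-28338832), a major aggrecanase of cartilage, fell after recovery, from 0.404, 0.653 and 0.664 to 0.0564, 0.184 and 0.202 CPM in AID-DIvA WT (log2 fold change -1.97, SE 0.37, adjusted p = 6.3e-04) and from 1.08, 0.738 and 1.23 to 0.2, 0.287 and 0.26 CPM in ID3-KO cells (log2 fold change -1.95, SE 0.28, adjusted p = 4.7e-04). Recovered libraries held 3 to 19 counts. In U2OS cells it was at 0.341, 0.386 and 0.436 and 0.626, 0.714 and 0.842 CPM in WT and at 1.07, 1.06 and 0.838 and 1.31, 1.72 and 1.1 CPM in ID3-KO libraries, higher with treatment but below the fold threshold (log2 fold changes 0.93 and 0.48, adjusted p = 0.014 and 0.033). The responses differed by 2.67, SE 0.29, adjusted p = 1.2e-08, and untreated U2OS ID3-KO cells held more ADAMTS5 than WT cells (log2 difference 1.35, SE 0.22, adjusted p = 0.0066).

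ADAMTS9 (chr3:64501333-64673676) rose from 1.22, 1.68 and 2.05 to 7.68, 8.51 and 7.4 CPM in U2OS WT and from 2.02, 1.86 and 2.1 to 8.79, 8.16 and 9.76 CPM in U2OS ID3-KO cells (log2 fold changes 2.27, SE 0.18, adjusted p = 4.4e-05 and 2.17, SE 0.1, adjusted p = 1.5e-14). In AID-DIvA WT cells it went from 1.01, 1.44 and 1.22 to 2.72, 2.44 and 2.41 CPM (log2 fold change 1.05, SE 0.15, adjusted p = 5.6e-05), a call that fell under the fold threshold without untreated replicate 1 (0.94) or recovered replicate 1 (0.99). In AID-DIvA ID3-KO cells it did not reach that threshold (log2 fold change 0.67, SE 0.14, adjusted p = 0.0035). ADAMTS20, below 1 CPM throughout, rose in AID-DIvA WT cells from 5, 11 and 14 to 35, 31 and 44 counts (log2 fold change 2.05, SE 0.28, adjusted p = 4.5e-05) and in U2OS ID3-KO cells from 2, 5 and 1 to 23, 20 and 16 counts (log2 fold change 2.73, SE 0.5, adjusted p = 4.5e-05, 3.47 without untreated replicate 2). Its call in U2OS WT cells, 1.39, SE 0.48, adjusted p = 0.043, was lost without untreated replicate 3 or any 1 treated library (1.1 to 1.57, adjusted p = 0.06 to 0.14). The value was 2.19 without untreated replicate 2 and 1.12 (adjusted p = 0.0087) without untreated replicate 1.

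ADAMTS8 and ADAMTS15, neighbours on chromosome 11 (chr11:130274820-130346532) that both cut aggrecan, had responses that differed between the U2OS genotypes. ADAMTS15 rose from 13.6, 14.8 and 14.6 to 33.6, 33.5 and 35.1 CPM in WT (log2 fold change 1.26, SE 0.07, adjusted p = 8.7e-06) and went from 22.2, 21.6 and 22.7 to 30.1, 25.9 and 27.6 CPM in ID3-KO cells (0.34 ± 0.06 SE, below the fold threshold), with a difference between the responses of -0.92, SE 0.09, adjusted p = 9.7e-05. ADAMTS8 went from 4.8, 4.55 and 5.12 to 7.44, 6.9 and 8.53 CPM in WT and from 10.2, 11.1 and 8.93 to 9.82, 7.97 and 9.33 CPM in ID3-KO cells, with a difference of -0.82, SE 0.16, adjusted p = 0.013. Untreated U2OS ID3-KO cells held more ADAMTS8 than WT cells (log2 difference 1.06, SE 0.11, adjusted p = 9.3e-04), a call that went to 0.99 without ID3-KO replicate 2. After recovery ADAMTS8 fell in AID-DIvA ID3-KO cells, from 7.01, 6.98 and 8.12 to 3.62, 3.5 and 3.21 CPM (log2 fold change -1.09, SE 0.1, adjusted p = 3.0e-05). AID-DIvA ID3-KO libraries held 22.2, 20.7 and 22 CPM of ADAMTS15 untreated and 12.5, 13 and 12.4 CPM recovered, lower but below the fold threshold (log2 fold change -0.77, SE 0.07, adjusted p = 3.3e-05).

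ADAMTS1, the widely expressed founding member, was at 17, 15.9 and 18.7 and 28.6, 20.8 and 22 CPM in AID-DIvA WT, 27.8, 25 and 23.8 and 27.9, 26.5 and 28.1 CPM in AID-DIvA ID3-KO, 10.3, 12.1 and 11.1 and 9.35, 10 and 10.1 CPM in U2OS WT and 15.4, 18.7 and 17.4 and 13.2, 12.1 and 12.1 CPM in U2OS ID3-KO libraries. It passed the fold threshold in no comparison, and its responses differed between U2OS and AID-DIvA cells by -0.61, SE 0.1, adjusted p = 8.6e-06. ADAMTS4, another aggrecanase, had 1 to 14 counts per library and was not tested.

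ADAMTS7 and ADAMTS12, which cut the cartilage protein COMP, were called in opposite directions in treated U2OS ID3-KO cells. ADAMTS12 (chr5:33523640-33892297) fell in U2OS ID3-KO cells, from 131, 128 and 127 to 46.1, 48.5 and 46.3 CPM (log2 fold change -1.45, SE 0.04, adjusted p = 6.6e-18). In AID-DIvA ID3-KO cells it went from 113, 110 and 106 to 57.1, 55.9 and 54.5 CPM, just short of the threshold (log2 fold change -0.97, SE 0.06, adjusted p = 1.7e-06), and in AID-DIvA WT cells from 77.3, 73.4 and 77.6 to 53.4, 55.6 and 56.4 CPM (log2 fold change -0.46, SE 0.05, adjusted p = 3.6e-06). U2OS WT libraries held 47.8, 80.1 and 83.1 CPM untreated, with replicate 1 far below the others, and 43.6, 45.5 and 44.9 CPM treated (log2 fold change -0.64, SE 0.19, adjusted p = 0.024). Mean levels with treatment were 55.15 CPM in WT and 55.84 CPM in ID3-KO AID-DIvA cells, against 76.12 and 109.4 CPM untreated. The responses of the AID-DIvA genotypes differed by -0.51, SE 0.07, adjusted p = 0.0017. ADAMTS7, below 1 CPM, rose in U2OS ID3-KO cells from 4, 5 and 5 to 22, 22 and 22 counts (log2 fold change 2.11, SE 0.4, adjusted p = 6.2e-05). In U2OS WT cells it went from 27, 27 and 11 to 39, 40 and 45 counts, just short of the fold threshold (log2 fold change 0.97, SE 0.31, adjusted p = 0.035), and was called without untreated replicate 1 (1.13, adjusted p = 0.0033). In AID-DIvA ID3-KO cells it did not pass the test (log2 fold change -0.62, SE 0.42, adjusted p = 0.27), and in AID-DIvA WT cells, with 3 to 10 counts per library, it was not tested. It was lower in untreated U2OS ID3-KO than in WT cells (log2 difference -1.98, SE 0.42, adjusted p = 0.018), a call lost without WT replicate 2 or any 1 ID3-KO library (-1.90 to -2.03, adjusted p = 0.06 to 0.091). Reads of ADAMTS7 could also come from MORF4L1, which overlaps it on the other strand, but 0.267% of its counts by strand lay there.

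Among the other ADAMTS genes, ADAMTS17 (chr15:100511794-100882210), a protease linked to fibrillin, rose from 0.635, 0.95 and 1.06 to 5.12, 5.4 and 5.03 CPM in U2OS WT (log2 fold change 2.57, SE 0.18, adjusted p = 2.6e-05), from 1.3, 1.33 and 1.27 to 8.05, 6.27 and 6.75 CPM in U2OS ID3-KO (log2 fold change 2.44, SE 0.12, adjusted p = 4.6e-14) and from 1.46, 1.24 and 1.32 to 3.65, 2.69 and 2.69 CPM in AID-DIvA ID3-KO cells (log2 fold change 1.15, SE 0.14, adjusted p = 2.0e-04). AID-DIvA WT libraries went from 0.889, 0.842 and 0.996 to 1.82, 1.43 and 1.49 CPM, below the fold threshold (log2 fold change 0.81, SE 0.16, adjusted p = 0.001). The groups with treatment did not overlap the untreated ones. ADAMTS10, another fibrillin-linked member, passed no fold threshold and was lower in treated U2OS cells, at 12.5, 11.8 and 11.3 against 22.2, 23.2 and 22.1 CPM in WT and 11, 11 and 11.5 against 21.3, 20.8 and 21.1 CPM in ID3-KO libraries (log2 fold changes -0.91 and -0.90). In AID-DIvA libraries, WT before ID3-KO, it was at 9.58, 10.7 and 11.6 against 16.3, 15.2 and 14.3 and 16.1, 13.8 and 12 against 16.7, 15.5 and 19.1 CPM. Its responses differed by -0.51, SE 0.09, adjusted p = 3.2e-05. ADAMTS13, which cuts von Willebrand factor, was at 4.67, 4.69 and 4.3 and 4.57, 6.35 and 6.36 CPM in AID-DIvA WT, 3.81, 4 and 4.19 and 6.33, 4.85 and 5.23 CPM in AID-DIvA ID3-KO, 10.5, 11.5 and 10.9 and 12.4, 10.8 and 10.6 CPM in U2OS WT and 7.29, 7.17 and 7.04 and 8.57, 7.81 and 7.74 CPM in U2OS ID3-KO libraries. Its responses differed between the lines by -0.29, SE 0.11, adjusted p = 0.026, a call lost without recovered AID-DIvA WT replicate 2 (-0.26, adjusted p = 0.055) or recovered AID-DIvA ID3-KO replicate 1 (-0.24, adjusted p = 0.056). ADAMTS16 lay between 6.22 and 15.7 CPM in the group means and passed no fold threshold, with log2 fold changes of 0.67 to 0.99 in the treatment comparisons. ADAMTS19 fell in recovered AID-DIvA ID3-KO cells on 5 to 20 counts per library (log2 fold change -1.05, SE 0.32, adjusted p = 0.027), a call lost without any 1 of 5 of the 6 libraries (-0.79 to -1.12, adjusted p = 0.051 to 0.14). ADAMTS18, with most counts over all libraries on the other strand, but 9, 9 and 9 on its own against 11, 8 and 7 there in treated U2OS ID3-KO libraries, was called higher in U2OS ID3-KO cells (log2 fold change 1.83, SE 0.49, adjusted p = 0.0021).

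The comparison of untreated ID3-KO with WT cells asked what the knockout alone was associated with. In AID-DIvA cells 2 of 33 members tested were higher (all genes 2.27%) and 2 lower (2.3%), and in U2OS cells 3 of 33 were higher (1.42%) and 5 lower (2.84%). By the adjusted p alone 15 were higher and 6 lower in AID-DIvA cells (all genes 18.6% and 18.1%), and 8 higher and 8 lower in U2OS cells (6.56% and 8.63%). MMP3 was shared among the higher calls and MMP9 and TIMP1 among the lower ones. Without AID-DIvA ID3-KO replicate 2 the lower calls in AID-DIvA cells numbered 4, and without U2OS WT replicate 3 the higher calls in U2OS cells numbered 5. MMP12 was not tested between the U2OS genotypes with all libraries and was called higher in ID3-KO cells without WT replicate 1 (2.63, adjusted p = 0.0046). The smaller arm lowers the number of libraries that the filter on low counts asks for, which lets MMP12 be tested. That call is therefore not only an effect of the values in WT replicate 1.

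Whether the response to mocetinostat differed between cells labelled WT and ID3-KO was tested as an interaction, with an adjusted p below 0.05 and no fold threshold. ID3 transcripts also rose with mocetinostat in the AID-DIvA cells of both labels, as given above. In AID-DIvA cells 2 of 37 members had a higher response in ID3-KO cells (MMP7 and MMP9, all genes 0.762%) and 1 a lower one (ADAMTS12, 0.451%). In U2OS cells 1 of 42 was higher (MMP2, 1.1%) and 3 lower (ADAMTS15, ADAMTS8 and MMP24, 1.06%). These numbers rested on single libraries. Without untreated U2OS WT replicate 1, the library that stood apart, 7 members had a higher and 7 a lower response in U2OS ID3-KO cells, among them MMP13 (1.77, adjusted p = 4.3e-04, against 1.46 and 0.062 with all libraries), MMP7 (1.98, adjusted p = 8.9e-04) and ADAMTS12 (-0.59, adjusted p = 4.8e-09). Without any 1 of treated WT replicate 2 or 3, untreated ID3-KO replicate 1 or 2 or treated ID3-KO replicate 3 no higher response was called. Without recovered AID-DIvA WT replicate 1, 4 members had a lower response in AID-DIvA ID3-KO cells, with MMP3 (-1.13, adjusted p = 0.0059, against -1.62 and 0.098 with all libraries), ADAMTS8 and ADAMTS15 added. The lower calls in AID-DIvA cells numbered 2 without recovered WT replicate 3 or recovered ID3-KO replicate 3, and the higher calls there numbered 1 without any 1 of 7 libraries and 0 without untreated WT replicate 2. Without treated U2OS WT replicate 1 the higher calls in U2OS cells numbered 2.

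The difference between the mean response in U2OS cells and that in AID-DIvA cells was called for 17 of 42 members as higher, against 29.6% of all genes, and for 10 as lower, against 27.9%. ADAMTS5, ADAMTS6, TIMP3 and MMP14 are given above, and ADAMTS2 (log2 difference 1.24, SE 0.08, adjusted p = 1.6e-12) and ADAMTS15 (1.35, SE 0.09, adjusted p = 9.0e-13) also had a more positive response in U2OS cells.

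Related genes were taken from lists of other secreted and membrane proteins. For the counts below, the shares of all genes tested that were called higher were 4.86% in recovered AID-DIvA WT and 4.9% in recovered ID3-KO cells. They were 13.6% in treated U2OS WT and 14.6% in treated U2OS ID3-KO cells. The shares called lower were 2.52%, 2.56%, 5.06% and 5.77% in the same order. Of the 6 ADAMTS-like genes, matrix proteins without a protease domain, none rose and 1 fell in recovered AID-DIvA WT cells (ADAMTSL2, log2 fold change -2.02, SE 0.29, adjusted p = 7.2e-05), and none was called in recovered ID3-KO cells. In treated U2OS cells 2 rose in WT and 1 in ID3-KO cells, ADAMTSL4 in both (log2 fold changes 1.87 and 1.54). The list's median log2 fold change lay between -0.18 and 0.40 in the 4 treatment comparisons.

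Of the 10 tested ADAM genes, mostly sheddases of the cell surface, 1 rose in each AID-DIvA (10%) and 2 in each U2OS comparison (20%), with medians of 0.17 to 0.29 and no gene lower. ADAM28, which is best known from lymphocytes, rose in all 4 comparisons (log2 fold changes 2.41 and 1.89 after recovery, 2.45 and 3.15 in treated U2OS cells) and was lower in untreated ID3-KO than in WT cells of both lines (-1.67 and -2.03). ADAM10 and ADAM17, the main sheddases, were called in none of them.

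Among the activators and inhibitors of matrix proteases 14 or 15 of 17 were tested in each treatment comparison. PLAU, urokinase, rose in recovered AID-DIvA WT cells (log2 fold change 1.03, SE 0.29, adjusted p = 0.039), PCSK5, a proprotein convertase, rose in treated U2OS WT and ID3-KO cells (1.18 and 1.23), and SERPINB2, an inhibitor of urokinase, had no count in untreated and 38 to 69 counts in treated U2OS WT libraries. THBS1 fell in treated U2OS WT cells (-1.76, SE 0.2, adjusted p = 2.6e-04), and FURIN, which activates membrane-type MMPs, and RECK, an MMP inhibitor of the cell membrane, were called in no treatment or genotype comparison. The medians of this list lay between -0.01 and 0.28. Of its tested genes 7.14% were called higher in recovered AID-DIvA WT and 0% in recovered ID3-KO cells. The shares in treated U2OS cells were 13.3% in WT and 7.14% in ID3-KO cells, not above those of all genes.

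Of 18 substrates, 13 to 16 were tested, of which 1 rose in each AID-DIvA and 5 in each U2OS comparison, and 1 fell in each but recovered AID-DIvA ID3-KO cells, where 2 fell. COL3A1 fell in all 4 treatment comparisons (log2 fold changes -1.64 and -1.14 after recovery, -1.27 and -1.98 in treated U2OS cells) and was higher in untreated ID3-KO than in WT cells of both lines (3.7 and 3.27). NCAN, neurocan, a proteoglycan of the nervous system, rose in all 4 (3.99 to 5.28). ACAN, aggrecan, rose in treated U2OS cells (1.05 and 1.01) and was not called after recovery (-0.94 and -0.70). FN1 and COL1A1 were called in no treatment or genotype comparison, and the list's median lay between -0.03 and 0.16 in the treatment comparisons.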

How the data were processed

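RNA-seq of 24 libraries, 3 in each of 8 groups, was used as raw gene counts that the authors deposited. According to the methods and the submitters' processing notes, reads were aligned with STAR to hg19/GRCh37 and counted with featureCounts, with versions not given in the sources used here. Counts from either strand were tested, and counts by strand served as a check. Groups followed the titles. Totals were 37878751 to 76906266 counts per library. Intervals cover counting error only.

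Each comparison was fitted on the whole table with edgeR 4.0.16 (R 4.3.3), using TMM factors, filterByExpr, the robust quasi-likelihood test and Benjamini-Hochberg adjustment over all genes tested. Treatment and genotype comparisons used their own 6 libraries, interactions the 12 of a line, and the difference between stages all 24. CPM used TMM factors over all libraries. The scripts were tested on simulated data. Members at 1 CPM or more in a group that were called are given by library, others by range, and related genes by list. The members and lists were chosen with earlier results of these data known. Alternatives were DESeq2 1.42.0, its size factors, other filters, reverse-strand counts, a replicate block, a common fit, no fold threshold and each library left out. The libraries are labelled biological replicates, and the study describes independent experiments. Figures were drawn with matplotlib 3.10.9.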

Additional observations from a re-analysis of the deposited data

Results flagged for a closer look

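The response to mocetinostat differed between the genotypes for 7 members, by a test of the difference itself (edgeR, Benjamini-Hochberg adjusted p below 0.05). In AID-DIvA cells the log2 difference, ID3-KO minus WT, was positive for MMP7 (2.35) and MMP9 (1.42) and negative for ADAMTS12 (-0.51). In U2OS cells it was positive for MMP2 (0.4) and negative for ADAMTS15 (-0.92), ADAMTS8 (-0.82) and MMP24 (-0.79). The values for MMP9, MMP7 and MMP2 lost the call when single libraries were left out, as given in the report.

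The mean response in treated U2OS cells minus that in recovered AID-DIvA cells passed the same test for 27 of 42 members. It was positive for MMP13 (2.77), ADAMTS5 (2.67), ADAMTS7 (2.08), MMP15 (1.67), ADAMTS19 (1.54), ADAMTS17 (1.52), TIMP3 (1.39), ADAMTS9 (1.36), ADAMTS15 (1.35), ADAMTS18 (1.31), ADAMTS2 (1.24), MMP10 (1.09), ADAMTS8 (1), MMP7 (0.97), MMP16 (0.86), ADAMTS14 (0.63) and MMP17 (0.4). It was negative for ADAMTS6 (-2.48), MMP14 (-1.52), MMP3 (-1.11), MMP9 (-0.9), ADAMTS1 (-0.61), MMP2 (-0.55), ADAMTS10 (-0.51), ADAMTS12 (-0.34), ADAMTS13 (-0.29) and MMP24 (-0.26). Cell line label and stage cannot be told apart in these differences, and 29.6% of all genes tested were called higher and 27.9% lower.

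The counts kept by strand, which served as a check beside the comparisons on either-strand counts, showed reads on the strand opposite to the gene for MMP20 (98.0% of its counts by strand), MMP25 (82.9%) and ADAMTS18 (66.9%).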

How the results depend on the processing

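Of 101 gene calls, the other fits on all libraries kept 621 of 633 values on their side of the threshold and in their direction, 12 lost the call and 0 reversed. Leaving out each library in turn kept 1090 of 1133, 43 lost the call and 0 reversed. Counts of members called higher and lower, in this order, moved most without the fold threshold: 16 and 8 in recovered AID-DIvA WT, 16 and 8 in recovered AID-DIvA ID3-KO, 24 and 6 in treated U2OS WT, 29 and 8 in treated U2OS ID3-KO cells, 15 and 6 between untreated AID-DIvA genotypes and 8 and 8 between untreated U2OS genotypes. When the 4 groups of a line shared a fit, 11 rose in recovered AID-DIvA WT cells and 5 were higher in untreated U2OS ID3-KO cells. With at least 10 counts in every library, which leaves fewer members to test, 0 fell in recovered AID-DIvA WT and 1 in recovered AID-DIvA ID3-KO cells, 9 rose in treated U2OS ID3-KO cells, 1 was higher in untreated AID-DIvA ID3-KO cells, the AID-DIvA interaction had 1 higher and 2 lower, and the difference between stages 11 higher. DESeq2 called 1 higher and 2 lower in the AID-DIvA interaction and 3 and 5 in the U2OS interaction. With no filter on low counts, 4 were lower in the AID-DIvA and 3 higher in the U2OS interaction. The cause of these shifts was not tested beyond the number of members or the threshold that a setting changes.

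With 1 library left out, the higher calls ranged from 6 to 7, 9 to 10, 11 to 15 and 19 to 20 in the treatment comparisons (recovered AID-DIvA WT and ID3-KO, treated U2OS WT and ID3-KO) and the lower calls from 2 to 2, 2 to 3, 1 to 2 and 3 to 4. Between untreated genotypes they ranged from 2 to 2 higher and 2 to 4 lower in AID-DIvA and from 2 to 5 higher and 4 to 6 lower in U2OS cells. The interactions ranged from 0 to 2 higher and 1 to 4 lower in AID-DIvA and from 0 to 7 higher and 3 to 7 lower in U2OS cells, and the difference between stages from 16 to 18 higher and 9 to 11 lower. Where an arm was left with 2 libraries, the spread was pooled over the fit. The filter on low counts then asks for fewer libraries, so low members can enter the test. These ranges are thus no spread around the numbers from all libraries. In recovered AID-DIvA ID3-KO cells 8 members rose with all libraries, below the range of 9 to 10.

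The deviations of same-numbered libraries from their group means correlated between -0.49 and 0.39, which does not settle whether the replicate numbers pair the libraries. With the replicate number as a block, the members called went from 11 to 10 in recovered AID-DIvA ID3-KO (without ADAMTS19), from 13 to 12 in treated U2OS WT (without ADAMTS20 and TIMP4, with ADAMTS7), from 22 to 21 in treated U2OS ID3-KO cells (without MMP21) and from 27 to 29 in the difference between stages (with ADAMTS3 and TIMP1). Members under 1 CPM rest on few counts, where a difference may not be detectable at this depth.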
